A study of Macaca mulatta with 30 samples.

Results

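The 9 genes described here mark excitatory neurons and the layers of the cerebral cortex: BCL11B, FEZF2, FOXP2, NEUROD2, NEUROD6, PCP4, RORB, SLC17A6 and TBR1. They were taken by symbol from a table of 15521 genes, and each symbol stood for 1 gene. RNA of cortical area 32, a medial prefrontal area, was sequenced from 30 male rhesus macaques (Macaca mulatta), with 1 library per animal. All the animals, the low drinkers included, had learned to self-administer ethanol and had then been free to drink a 4% (w/v) solution for 22 hours a day over 12 months, so no animal free of ethanol is in the comparison. The 4 drinking categories were very heavy drinkers (VHD, n = 6), heavy drinkers (HD, n = 7), binge drinkers (BD, n = 7) and low drinkers (LD, n = 10). VHD animals drank more than 3 g/kg a day on average and more than 4 g/kg on at least 10% of days, HD animals drank at least 3 g/kg on at least 20% of days, BD animals drank at least 2 g/kg on at least 55% of days with a blood ethanol of 80 mg/dl or more at least yearly, and LD animals met none of these definitions. The animals came from cohort 4 (n = 9), cohort 5 (n = 8), cohort 7b (n = 5) and cohort 7a (n = 8), whose mean ages after drinking were 9.98, 7.15, 7.18 and 5.70 years. A difference of age therefore cannot be told apart from one of cohort. Cohorts 5 and 7b were of nearly equal age and were not compared with each other. VHD animals came from cohort 5 (4 animals) and cohort 7a (2 animals), whereas LD animals came from cohort 4 (4 animals), cohort 7b (3 animals) and cohort 7a (3 animals).

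Excitatory neurons of the cortex release glutamate and are stacked in layers that differ in their targets. Upper layers send axons to other cortical areas, the middle layer receives axons from the thalamus, and deep layers project out of the cortex. In mouse cortex these identities are set by transcription factors during development, several of which repress one another between neighbouring layers, and many remain expressed in the adult. NEUROD2 and NEUROD6 encode basic helix-loop-helix factors of pyramidal neurons across layers. TBR1 encodes a T-box factor of early-born and corticothalamic neurons. FEZF2 and BCL11B encode zinc finger factors of neurons projecting below the cortex, FEZF2 acting upstream of BCL11B in mouse, and BCL11B is also expressed in striatal neurons and in some interneurons. FOXP2 encodes a forkhead factor of deep layers and of the striatum, and PCP4 a small calmodulin-binding protein used as a marker of deep layers. RORB encodes a nuclear receptor that marks the thalamus-recipient middle layer. SLC17A6 encodes the vesicular glutamate transporter VGLUT2, which is abundant in the thalamus and scarcer in adult cortex. Because whole tissue was sequenced, fewer cells of a type and less RNA per cell cannot be told apart.

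The libraries held 4392296 to 13068498 reads within the measured exons for LD animals, 4940950 to 13985136 for BD, 5514467 to 12881768 for HD and 6575147 to 13465260 for VHD. Values are given in normalized reads, the authors' reads after scaling each library to a common upper quartile, 1 read being worth 0.656 to 2.07 of them. Levels of marker genes were read beside the tissue label. CAMK2A, the calcium/calmodulin-dependent kinase of excitatory neurons, had a median of 5024 normalized reads per kb of exon, and GAD1, the GABA-synthesizing enzyme of inhibitory neurons, 935. All 18 inhibitory, 8 astrocyte, 12 myelin and 9 microglial markers in the table were detected in at least 1 library. So were all but 155 of the 15521 genes, so detection alone does not check the tissue. The 10 striatal markers in the table had medians from 4.64 normalized reads per kb for DRD2 to 438 for PPP1R1B. Among the others, TAC1 had 142, PENK 132, the dopamine receptor gene DRD1 131 and PDE10A 81.7. SLC17A7, which encodes the main cortical vesicular glutamate transporter, and the upper layer genes CUX1 and CUX2 were not analysed here.

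The genes lie on 7 chromosomes, named here as the exon names in the files name them, the genome build not being given in the sources used here. BCL11B spans chr14:161647346-161750159 in 4 exons, FEZF2 chr3:118521521-118525371 in 5 exons, FOXP2 chr7:139564567-139829437 in 17 exons, and PCP4 chr7:6732751-6792923 in 3 exons. NEUROD2 spans chr17:47414140-47418131 and NEUROD6 chr7:76562455-76565909, both in 2 exons. RORB spans chr9:20301576-20491778 in 10 exons, SLC17A6 chr11:43645665-43687086 in 12 exons, and TBR1 chr2b:47981126-47989803 in 6 exons. None of these exons overlapped an exon of another gene (0 overlaps), so no reads were shared in this way.

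Per length of exon, the genes fell into a higher and a lower tier. The higher tier held RORB, with a median of 235 normalized reads per kb over the 30 libraries, NEUROD6 with 223, TBR1 with 209 and NEUROD2 with 134. The lower tier held PCP4 with 60.8, FEZF2 with 56.5, BCL11B with 53.6, SLC17A6 with 32.6 and FOXP2 with 23.02. The gap between the tiers was the clearest step, NEUROD2 exceeding PCP4 in all 30 libraries. TBR1 exceeded NEUROD2 in 29 of 30 libraries, SLC17A6 exceeded FOXP2 in 26, and BCL11B exceeded SLC17A6 in 24. The remaining neighbours in the order did not separate: RORB exceeded NEUROD6 in 15 of 30 libraries, NEUROD6 exceeded TBR1 in 19, PCP4 exceeded FEZF2 in 17 and FEZF2 exceeded BCL11B in 18. The ranges of every neighbouring pair overlapped.

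**Figure D1:**
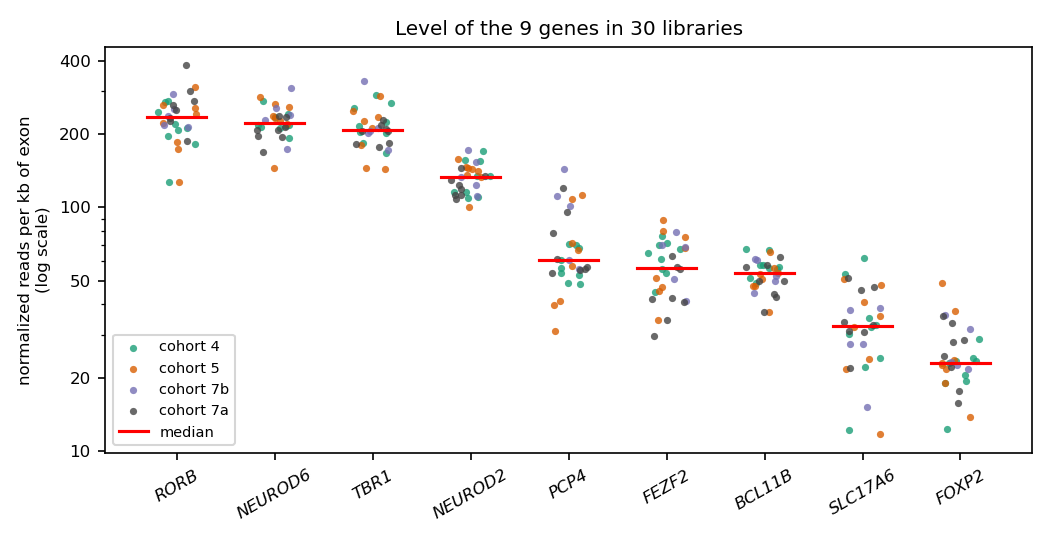
Level of each gene in normalized reads per kb of exon (log scale), 1 point per animal coloured by cohort, with the median over 30 animals as a red line. RORB, NEUROD6, TBR1 and NEUROD2 have medians of 134 to 235, and the other genes have medians of 23.02 to 60.8.

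The genes differed in how much they varied between animals. SLC17A6 spread the most on the log2 scale, with an SD of 0.58 over the 30 animals, larger than that of 93.4% of the 12935 genes tested. Its lowest value was 45.7 normalized reads, in VHD replicate 3, its median 127 and its highest 242, in LD replicate 7, a 5.30-fold range. PCP4 followed with an SD of 0.50 and a 4.63-fold range, from 17.2 normalized reads in VHD replicate 6 to 79.7 in HD replicate 3. FOXP2 had an SD of 0.43 and a 3.97-fold range, and FEZF2 an SD of 0.41 and a 2.99-fold range. RORB had an SD of 0.34 and TBR1 one of 0.27. BCL11B, NEUROD6 and NEUROD2 were the steadiest, with SDs of 0.22, 0.22 and 0.21 log2 units, close to the median of all tested genes (0.22). Counting error took a limited share of this spread: the coefficient of variation was 36.7% for SLC17A6, 22.5% for RORB and 19.6% for TBR1, where reads alone would give 10.4%, 3.75% and 4.23%. PCP4 is short and had only 13 to 81 reads a library, and its coefficient of variation was 38.4% where reads alone would give 17.8%.

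Differences between drinking categories were estimated with limma on log2 values, with the cohort in the model, and p-values were adjusted by Benjamini-Hochberg over all 12935 tested genes. All 9 genes passed the filter on low values. For VHD against LD, 0 of the 9 genes passed an adjusted p under 0.05, and 0% of all tested genes did. At an unadjusted p under 0.05 it was 1 of 9, BCL11B, where 3.5% of all tested genes had such a p, 1.76% as higher and 1.74% as lower in VHD. For HD against LD the counts were 0 of 9 adjusted (0% of all tested genes) and 1 of 9 unadjusted, again BCL11B (12.5%, with 5.87% higher and 6.68% lower in HD). HD and LD libraries were spread unevenly over sets of consecutive library numbers, with 4 HD and 1 LD in set 1 and 1 HD and 5 LD in set 3. With these sets as a term, 596 tested genes in place of 1623 had an unadjusted p under 0.05 for HD by limma. For BD against LD the counts were 0 of 9 adjusted (0%) and 0 of 9 unadjusted (3.05%, with 1.56% higher and 1.48% lower in BD). A slope over the 4 categories, taken as evenly spaced from the lightest to the heaviest drinkers, gave 0 of 9 adjusted (0%) and 1 of 9 unadjusted, BCL11B (6.18%, with 3.12% rising and 3.06% falling). Any difference between categories gave 0 of 9 on both counts (0% and 5.62%). With edgeR on the recovered whole reads, 0 genes of the whole table passed in each of these comparisons as well, and 492, 1518, 345, 814 and 668 had an unadjusted p under 0.05 for VHD, HD, BD, the slope and any category. For every gene of the 9 the range of the VHD, the HD and the BD animals overlapped that of the LD animals. The share of all tested genes with such an overlap was not computed, so this is a description only. The estimates were above 0 for 7 of the 9 genes in VHD, 6 in HD and 8 in BD, where 49.9%, 50.5% and 50% of all tested genes were above 0. Their medians were 0.11, 0.11 and 0.06 log2 units, against 0.00 over all tested genes in each case. The 3 differences share the LD animals and were not compared with one another.

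In the model of category and cohort over all animals, BCL11B carried the only unadjusted p-values under 0.05 among the drinking categories. The lowest, median and highest values were 284, 387 and 519 normalized reads in LD, 286, 431 and 477 in BD, 365, 413 and 509.8 in HD, and 338, 420.0 and 501 in VHD. The HD and VHD values lay inside the LD range, and 5 of 7 HD and 4 of 6 VHD animals were above the LD median. In limma BCL11B was 0.30 ± 0.12 log2 units higher in VHD than in LD (estimate ± SE, unadjusted p = 0.0194, adjusted p = 0.948). The estimate was 0.26 ± 0.10 for HD against LD (unadjusted p = 0.0199, adjusted p = 0.343) and 0.06 ± 0.10 for BD against LD (adjusted p = 0.999). The slope over the 4 categories was 0.11 ± 0.04 per step by limma (unadjusted p = 0.00886, adjusted p = 0.745). These sizes rest on the cohort term: without it the VHD difference was 0.08 and the HD difference 0.12, and within cohort 7a alone, with 2 VHD, 2 HD and 3 LD animals, they were 0.22 and 0.32.

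FEZF2, which stands upstream of BCL11B in mouse corticospinal neurons, had closely matched medians across the categories. Its lowest, median and highest values were 85.4, 120.1 and 149 normalized reads in LD, 98.3, 116 and 159 in BD, 62.0, 119 and 166 in HD, and 71.5, 115 and 185 in VHD. HD and VHD animals lay both above the highest and below the lowest LD value, 2 HD and 2 VHD animals above it and 1 HD and 2 VHD animals below it. The limma estimates were 0.04 ± 0.24 for VHD, 0.06 ± 0.20 for HD and 0.06 ± 0.18 for BD against LD, and the 95% interval for VHD ran from −0.44 to 0.52. The sign for VHD turned to −0.33 within cohort 7a.

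FOXP2 and PCP4 are further deep layer genes. FOXP2 had 76.5, 148 and 224 normalized reads as its lowest, median and highest in LD, 119.7, 142 and 177 in BD, 85.7, 117 and 232 in HD, and 134, 143 and 304 in VHD. The VHD maximum, in VHD replicate 4, stood above all other animals, while 4 of 6 VHD animals were below the LD median. The limma estimates were 0.24 ± 0.26 for VHD, −0.09 ± 0.22 for HD and 0.02 ± 0.20 for BD against LD. PCP4 had 26.9, 32.8 and 62.1 normalized reads in LD, 22.0, 31.4 and 66.9 in BD, 22.96, 37.1 and 79.7 in HD, and 17.2, 35.7 and 60.4 in VHD. Both the lowest and the highest of the 30 values thus came from VHD and HD animals, and 3 of 6 VHD animals were above the LD median. Its estimates were 0.29 ± 0.30 for VHD, 0.35 ± 0.26 for HD and 0.11 ± 0.24 for BD, and the interval for VHD ran from −0.33 to 0.91.

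SLC17A6 was the one gene whose estimate was below 0 in all 3 comparisons with LD. Its lowest, median and highest values were 47.6, 149 and 242 normalized reads in LD, 86.2, 118 and 140.2 in BD, 59.0, 132 and 187 in HD, and 45.7, 123 and 199 in VHD. All 7 BD animals, 5 of 7 HD animals and 4 of 6 VHD animals were below the LD median, but the LD animals themselves covered nearly the whole range. The limma estimates were −0.56 ± 0.35 for VHD (unadjusted p = 0.125, adjusted p = 0.948), −0.44 ± 0.30 for HD (unadjusted p = 0.146, adjusted p = 0.528) and −0.34 ± 0.27 for BD (unadjusted p = 0.219, adjusted p = 0.999). The 95% interval for VHD ran from −1.27 to 0.16. Within cohort 7a, with 2 animals each of VHD and HD and 3 of LD, the limma estimates were −0.14 for VHD and −0.61 for HD, the second with an unadjusted p of 0.0404 (adjusted p = 0.909), and within cohort 4 that for BD was −0.34. With a term for sets of library numbers the BD estimate was −0.08.

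The pan-excitatory factors NEUROD2 and NEUROD6 differed little between categories relative to their spread. NEUROD2 had 313, 355 and 488 normalized reads as its lowest, median and highest in LD, 315, 384 and 451 in BD, 322, 417 and 495 in HD, and 289, 372 and 418 in VHD. The limma estimates were −0.03 ± 0.13 for VHD, 0.13 ± 0.11 for HD and 0.12 ± 0.10 for BD against LD. NEUROD6 had 364, 459 and 550.0 normalized reads in LD, 454, 492 and 586 in BD, 418, 484 and 661 in HD, and 311, 504 and 569 in VHD. Its estimates were 0.09 ± 0.14, 0.19 ± 0.12 and 0.13 ± 0.11 for VHD, HD and BD, with 95% intervals that stayed between −0.19 and 0.43. For both genes 6 of 7 BD animals were above the LD median.

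TBR1 and RORB had estimates smaller than their SE in each comparison with LD. TBR1 had 504, 596 and 848 normalized reads as its lowest, median and highest in LD, 488, 632 and 779.5 in BD, 417, 599.5 and 961 in HD, and 424.5, 615 and 836 in VHD. The limma estimates were 0.11 ± 0.17 for VHD, 0.11 ± 0.15 for HD and 0.03 ± 0.14 for BD against LD. RORB had 461, 885 and 1064 normalized reads in LD, 663, 797 and 990.5 in BD, 464, 809 and 1137 in HD, and 629.7, 889 and 1391 in VHD. Its estimates were 0.12 ± 0.20 for VHD, −0.01 ± 0.17 for HD and 0.05 ± 0.16 for BD. The highest RORB value, in VHD replicate 5, was the only VHD value above the LD range.

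**Figure D2:**
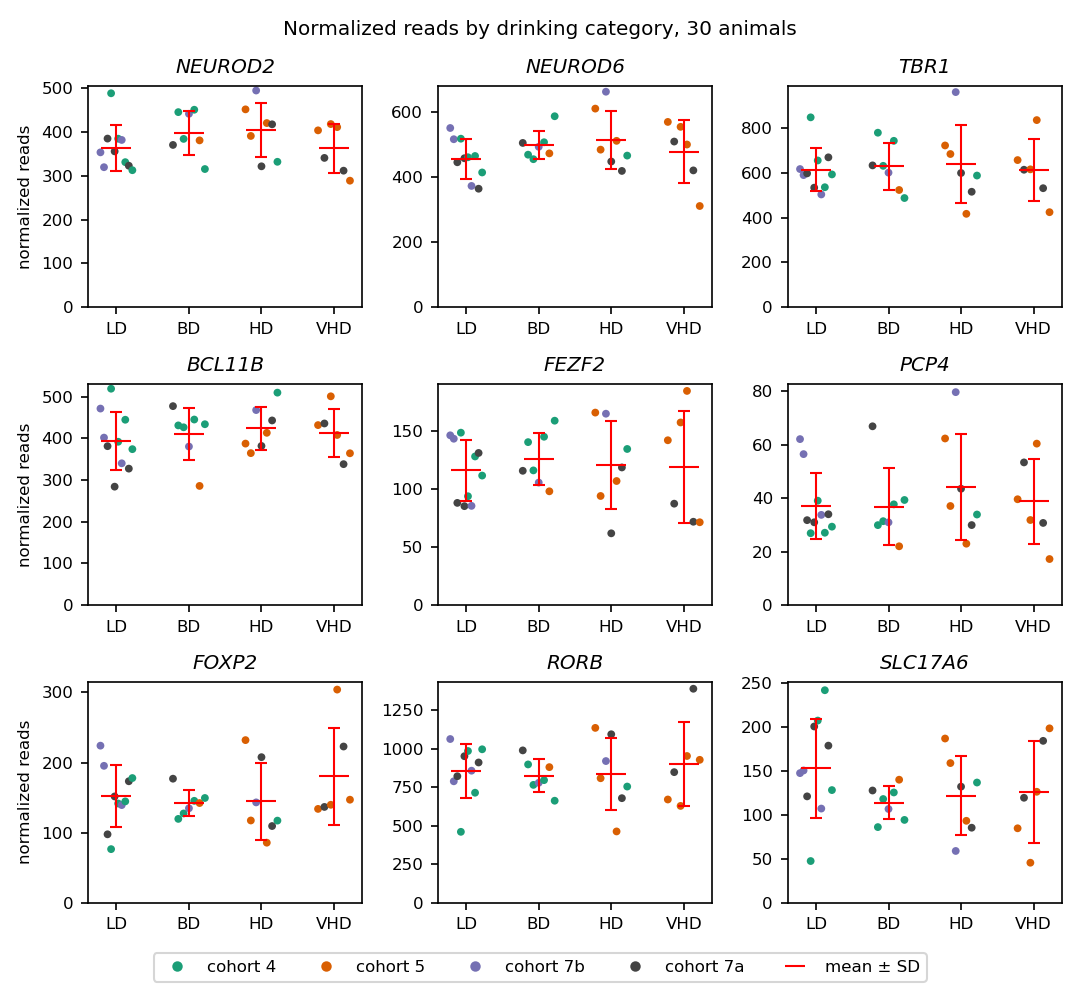
Normalized reads of each gene (linear axis from 0) in LD, BD, HD and VHD animals, 1 point per animal coloured by cohort, with the mean ± SD in red. For every gene the BD, HD and VHD points overlap the LD points, which was not counted over all tested genes. SLC17A6 has medians of 149, 118, 132 and 123 from LD to VHD.

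The cohorts differ in age, cohorts 5 and 7b only slightly, and were analysed in the same model. Against cohort 7a, the youngest, 0 of the 9 genes passed an adjusted p under 0.05 for cohort 4, cohort 5 or cohort 7b, and 0% of all tested genes did in each of the 3. At an unadjusted p under 0.05 it was 2 of 9 for cohort 4, BCL11B and FEZF2 (9.15% of all tested genes, with 4.94% higher and 4.21% lower). It was 0 of 9 for cohort 5 (8.59%, with 4.67% higher and 3.92% lower) and 1 of 9 for cohort 7b, FEZF2 (5.04%, with 2.81% higher and 2.23% lower). Any difference between cohorts gave 0 of 9 adjusted (0%) and 1 of 9 unadjusted, BCL11B (8.04%). The estimates were above 0 for 5 of the 9 genes in cohort 4, 3 in cohort 5 and 7 in cohort 7b, where 51.8%, 52.7% and 52.4% of all tested genes were. EdgeR gave 0 adjusted calls in each over the whole table and 1117, 1094, 644 and 1059 unadjusted ones. These differences share the cohort 7a animals and were likewise not compared with one another.

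FEZF2 and BCL11B had the smallest p-values of the 9 genes for cohort 4. The lowest, median and highest FEZF2 values were 94.0, 135 and 159 normalized reads in cohort 4, against 62.0, 87.9 and 131 in cohort 7a. All 9 cohort 4 animals were above the cohort 7a median and 5 above its highest value. The limma difference was 0.48 ± 0.19 log2 units (unadjusted p = 0.0179, adjusted p = 0.437). The 5 cohort 7b animals had 165.3, 146.7, 143.7, 105.8 and 85.7 normalized reads of FEZF2, 3 of them above the highest cohort 7a value, with a difference of 0.45 ± 0.22 by limma (unadjusted p = 0.0458, adjusted p = 0.976). Cohort 5 had 71.5, 125 and 185 and a difference of 0.38 ± 0.20 (unadjusted p = 0.0635, adjusted p = 0.612). BCL11B had 374, 434 and 519 normalized reads in cohort 4, against 284, 382 and 477 in cohort 7a, with 8 of 9 cohort 4 animals above the cohort 7a median. Its limma difference was 0.31 ± 0.10 (unadjusted p = 0.00431, adjusted p = 0.291), while those of cohorts 5 and 7b were −0.06 ± 0.10 and 0.20 ± 0.11.

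Myelin genes were also higher on average in this contrast, none at an adjusted p under 0.05. All 12 myelin markers had estimates above 0 for cohort 4 against cohort 7a, where 51.8% of all tested genes did, and 10 of them had an unadjusted p under 0.05, where 9.15% of all tested genes did. Their summed level was 4621 to 22298 normalized reads in cohort 4, against 4335 to 7400 in cohort 7a, with none at 0 in all libraries. With the mean myelin level as a term, the difference between cohorts 4 and 7a was 0.25 for FEZF2 and 0.24 for BCL11B. Among LD animals alone, 4 from cohort 4 and 3 from cohort 7a, it was 0.25 and 0.38. The part of tissue composition in these differences was not tested further.

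RORB had estimates below 0 against cohort 7a, none at an unadjusted p under 0.05. Its lowest, median and highest values were 461, 766 and 998 normalized reads in cohort 4, against 679.9, 932 and 1391 in cohort 7a, and 7 of 9 cohort 4 animals were below the cohort 7a median. The limma difference was −0.29 ± 0.16 for cohort 4 (unadjusted p = 0.0902, adjusted p = 0.615), −0.30 ± 0.17 for cohort 5 (unadjusted p = 0.0907, adjusted p = 0.660) and −0.08 ± 0.19 for cohort 7b (unadjusted p = 0.675, adjusted p = 0.998). FOXP2 was at −0.20 ± 0.21 and SLC17A6 at −0.30 ± 0.29 for cohort 4 against cohort 7a. NEUROD2, NEUROD6 and TBR1 were at 0.07 ± 0.11, 0.12 ± 0.11 and 0.17 ± 0.14, and PCP4 at −0.16 ± 0.25. Several of these directions turned: without the 6 shallowest libraries, 4 of them of cohort 4, the estimates were 0.038 for FOXP2, 0.016 for SLC17A6, −0.12 for NEUROD2 and −0.0022 for TBR1, and with library number sets as a term PCP4 was at 0.13. In cohort 7b, SLC17A6 was at −0.49 ± 0.32 and PCP4 at 0.43 ± 0.28 (unadjusted p = 0.126, adjusted p = 0.998), where 4 of 5 animals had more PCP4 than the cohort 7a median. In cohort 5, SLC17A6 was at −0.04 ± 0.29. PCP4 was at −0.31 ± 0.25 there by limma (unadjusted p = 0.221, adjusted p = 0.763), with 4 of 8 animals above the cohort 7a median.

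**Figure D3:**
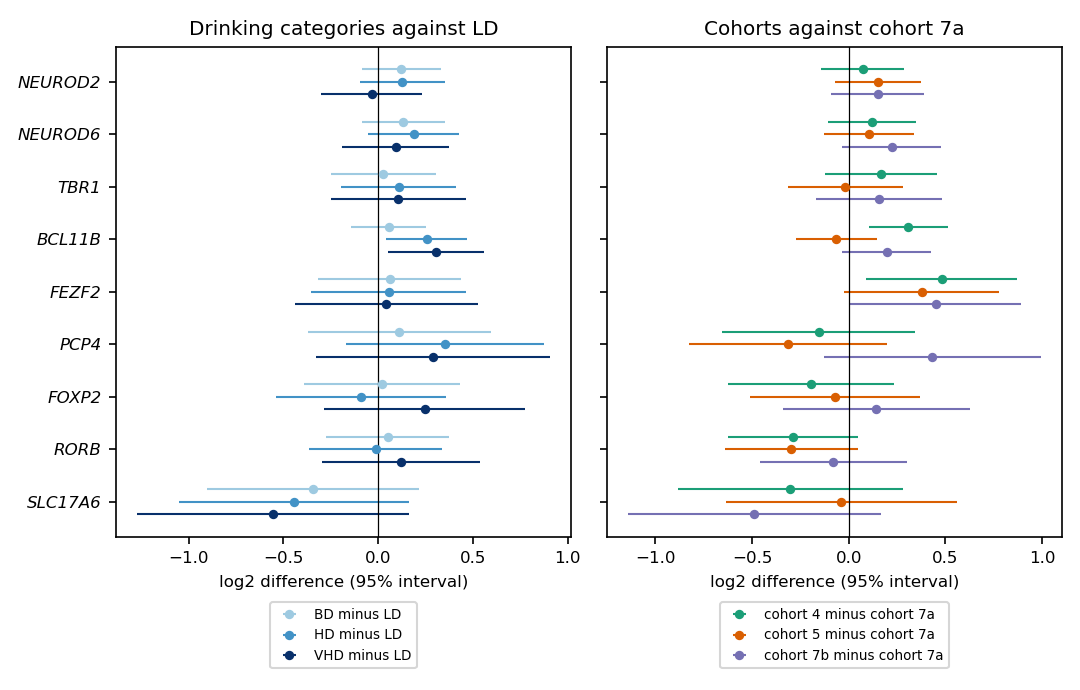
Differences of log2 normalized reads for each gene with 95% intervals from limma, on the left BD, HD and VHD against LD, on the right cohorts 4, 5 and 7b against cohort 7a. Most intervals cover 0, with BCL11B (VHD, HD and cohort 4) and FEZF2 (cohorts 4 and 7b) as the exceptions, and the SLC17A6 intervals are the widest.

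While no gene passed between categories or cohorts, many of the gene pairs varied together across the 30 animals. All 36 pairs were correlated on the log2 scale, each by Pearson's r and Spearman's rho with 100000 permutations, and p-values were adjusted over the 36 pairs. For r, 20 pairs passed an adjusted p under 0.05, 15 positive and 5 negative, and for rho 17 pairs did, 16 of them shared. From these values the genes parted into 2 sets, a description made after the correlations were seen and so not tested. Within BCL11B, FEZF2, NEUROD2, NEUROD6, PCP4 and TBR1 all 15 pairs had a positive r, between 0.18 and 0.63, and 11 of them passed. Within FOXP2, RORB and SLC17A6 all 3 pairs passed, with r between 0.45 and 0.76. Of the 18 pairs between the sets, 12 were negative, 5 passed as negative, and 1, FOXP2 with PCP4, passed as positive. For comparison, the r of each gene with the other tested genes had a median between −0.03 and 0.01. Its central 90% lay between about −0.50 and 0.50 for NEUROD2, the widest, and −0.37 and 0.38 for FEZF2, the narrowest. The share of all gene pairs at such an adjusted p was not computed, so the counts of passing pairs are a description only.

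**Figure D4:**
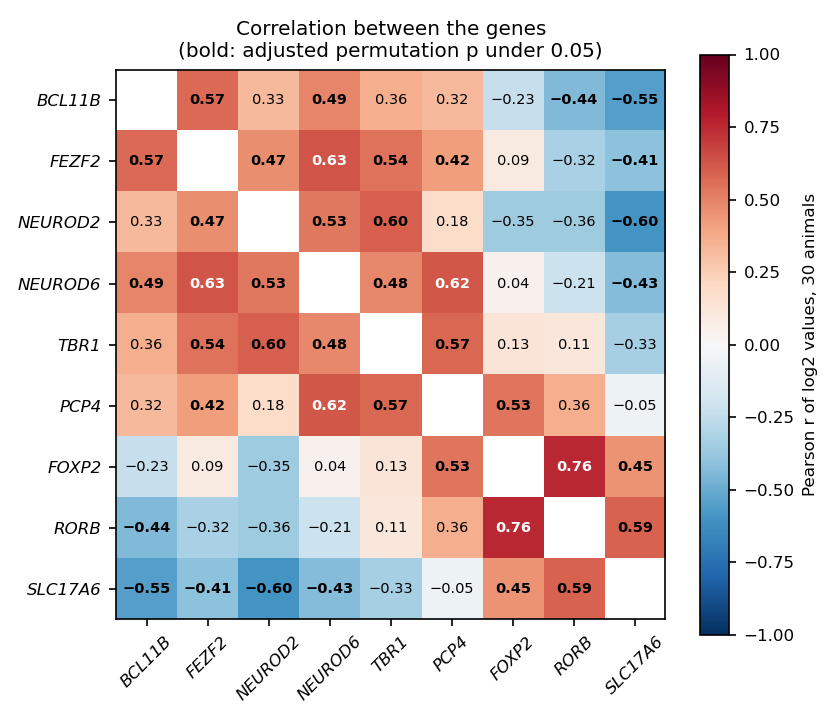
Pearson r between log2 normalized reads of each pair of genes over 30 animals, on a scale from −1 (blue) to 1 (red), with bold values for pairs at an adjusted permutation p under 0.05. The 6 genes from BCL11B to PCP4 form a positive block, FOXP2, RORB and SLC17A6 another, and SLC17A6 is negative against BCL11B, FEZF2, NEUROD2 and NEUROD6.

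FOXP2 and RORB, one a deep layer and the other a middle layer gene, were the closest pair. Their r was 0.76 (adjusted permutation p = 0.00072) and rho 0.72 (adjusted permutation p = 0.00054), and r was 0.75 without the 2 animals farthest from the FOXP2 median and 0.63 without the 2 farthest from the RORB median. It was 0.76, 0.78 and 0.87 within cohorts 4, 5 and 7a, cohort 7b having too few animals (5). Within the LD, BD, HD and VHD animals it was 0.76, 0.25, 0.94 and 0.62. On residuals after category and cohort it was 0.77. LD replicate 3 and HD replicate 5 were the 2 lowest for both genes, with 76.5 and 85.7 normalized reads of FOXP2 and 461 and 464 of RORB. This r was above 99.97% of the r of FOXP2 with all other tested genes, those of the set included, and above 99.9% of those of RORB. Of the 20 pairs that passed, 15 lay outside the central 90% of such r for both of their genes. The other 5 did not, SLC17A6 with FEZF2 lying at the 7.07 percentile for SLC17A6, and FEZF2 with NEUROD2 and with PCP4 at 93.3 for NEUROD2 and 93.8 for PCP4. NEUROD6 with SLC17A6 lay at 5.86 for SLC17A6, and NEUROD6 with TBR1 at 94.3 for TBR1.

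RORB and SLC17A6 correlated at r = 0.59 and rho = 0.57 (adjusted permutation p = 0.00432 and 0.0072), with 0.48 and 0.42 without the 2 animals farthest from the RORB or the SLC17A6 median and 0.62, 0.70 and 0.68 within cohorts 4, 5 and 7a. FOXP2 and SLC17A6 correlated at r = 0.45 and rho = 0.53 (adjusted permutation p = 0.028 and 0.0141), with 0.38 and 0.36 when the 2 farthest animals were left out by FOXP2 or by SLC17A6, and 0.68, 0.29 and 0.60 within the cohorts, and its adjusted permutation p was 0.134 without LD replicate 3. SLC17A6 was negatively correlated with BCL11B, FEZF2, NEUROD2 and NEUROD6, while its r with TBR1 (−0.33) and PCP4 (−0.05) did not pass. With NEUROD2 its r was −0.60 and rho −0.56 (adjusted permutation p = 0.00324 and 0.00766), 24 of 30 animals lying on opposite sides of the 2 medians, with −0.51 and −0.54 without the 2 animals farthest by NEUROD2 or by SLC17A6 and −0.55, −0.40 and −0.71 within the cohorts. With BCL11B its r was −0.55 and rho −0.49 (adjusted permutation p = 0.00666 and 0.021), 22 of 30 animals lying on opposite sides, with −0.55 and −0.41 without the 2 animals farthest by BCL11B or by SLC17A6 and −0.46, −0.71 and −0.84 within the cohorts. The 5 negative pairs kept their sign within all 3 cohorts. With NEUROD6 (r = −0.43, rho = −0.39) and FEZF2 (r = −0.41, rho = −0.37) SLC17A6 passed for r (adjusted permutation p = 0.0368 and 0.0467) but not for rho (0.0628 and 0.077), and r was −0.27 and −0.38 without the 2 animals farthest by NEUROD6 or FEZF2 and −0.40 and −0.32 without the 2 farthest by SLC17A6. Of the 30 libraries, 5 for NEUROD6 and 15 for FEZF2 each ended the call when left out. BCL11B and RORB correlated at r = −0.44 and rho = −0.43 (adjusted permutation p = 0.0301 and 0.0389), with −0.48 and −0.39 without the 2 animals farthest by BCL11B or by RORB and −0.80, −0.45 and −0.37 within cohorts 4, 5 and 7a. The adjusted permutation p of this pair was 0.112 without LD replicate 3, 0.0581 without VHD replicate 3 and 0.0618 without VHD replicate 5.

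Among the pan-excitatory and deep layer genes the leading pair was FEZF2 and NEUROD6, with r = 0.63 and rho = 0.70 (adjusted permutation p = 0.00216 and 0.00054). It was 0.59 and 0.54 without the 2 animals farthest by FEZF2 or by NEUROD6, and 0.73 and 0.79 within cohorts 4 and 5 but −0.28 within cohort 7a. BCL11B and FEZF2, successive steps of 1 pathway in mouse, correlated at r = 0.57 and rho = 0.61 (adjusted permutation p = 0.00477 and 0.00516), with 0.56 and 0.59 without the 2 animals farthest by BCL11B or by FEZF2 and 0.64, 0.56 and 0.25 within cohorts 4, 5 and 7a. NEUROD2 and TBR1 correlated at r = 0.60 and rho = 0.58 (adjusted permutation p = 0.00324 and 0.0072), with 0.45 and 0.66 without the 2 animals farthest by NEUROD2 or by TBR1, 0.94 and 0.55 within cohorts 4 and 5 and −0.31 within cohort 7a. NEUROD6 and PCP4 correlated at r = 0.62 and rho = 0.50 (adjusted permutation p = 0.00324 and 0.02), with 0.41 and 0.55 without the 2 animals farthest by NEUROD6 or by PCP4 and 0.41, 0.69 and 0.70 within the cohorts. PCP4 and TBR1 correlated at r = 0.57 and rho = 0.48 (adjusted permutation p = 0.00432 and 0.0215), with 0.49 and 0.42 without the 2 animals farthest by PCP4 or by TBR1 and −0.27, 0.93 and 0.58 within the cohorts.

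The pair of related factors NEUROD2 and NEUROD6 correlated at r = 0.53 and rho = 0.48 (adjusted permutation p = 0.00677 and 0.0215), 0.33 without the 2 animals farthest by either gene, and 0.18, 0.97 and 0.21 within cohorts 4, 5 and 7a. NEUROD6 and TBR1 passed for r, at 0.48 (adjusted permutation p = 0.0186), but not for rho, at 0.40 (adjusted permutation p = 0.0581). Its r was 0.20 without the 2 animals farthest by NEUROD6 and 0.46 without the 2 farthest by TBR1, with an adjusted permutation p of 0.0868 without HD replicate 3 and 0.0888 without VHD replicate 6, and −0.07, 0.58 and 0.00 within the cohorts. FOXP2 and PCP4, the positive pair between the sets, correlated at r = 0.53 and rho = 0.45 (adjusted permutation p = 0.00744 and 0.0306), with 0.46 and 0.60 without the 2 animals farthest by FOXP2 or by PCP4 and 0.39, 0.70 and 0.25 within the cohorts. The other 4 pairs that passed for r were FEZF2 with TBR1 (0.54), BCL11B with NEUROD6 (0.49), FEZF2 with NEUROD2 (0.47) and FEZF2 with PCP4 (0.42), whose rho were 0.52, 0.58, 0.45 and 0.39. FEZF2 with PCP4 did not pass for rho (adjusted permutation p = 0.0628), and leaving out any 1 of 9 libraries ended its call for r. FEZF2 with NEUROD2 had an adjusted permutation p of 0.0506 without HD replicate 3 and 0.0694 without VHD replicate 6. Of the 20 pairs, 15 had the same sign within cohorts 4, 5 and 7a. The exceptions were FEZF2 with NEUROD6 and NEUROD2 with TBR1, negative in cohort 7a, and PCP4 with TBR1, PCP4 with FEZF2 and NEUROD6 with TBR1, negative in cohort 4. Within categories, the sign turned in BD for NEUROD2 with NEUROD6 (−0.60) and NEUROD6 with TBR1 (−0.50). It turned in LD for PCP4 with TBR1 (−0.07), and in LD and BD for FEZF2 with NEUROD2 (−0.06 and −0.17). All other pairs that passed kept their sign, though NEUROD2 with SLC17A6 was at −0.01 in BD. Differences of r between categories were not tested.

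A few libraries stood at the ends of several genes at once. HD replicate 3, of cohort 7b, was the highest of 30 for NEUROD2 (495 normalized reads), NEUROD6 (661), TBR1 (961) and PCP4 (79.7), near the top for FEZF2 (165.3) and near the bottom for SLC17A6 (59.0). VHD replicate 6, of cohort 5, was the lowest for NEUROD2 (289), NEUROD6 (311) and PCP4 (17.2), next to lowest for TBR1 (424.5) and FEZF2 (71.5), and near the top for SLC17A6 (199). The astrocyte markers were at their lowest mean log2 level in HD replicate 3 (11.32) and at their highest in VHD replicate 6 (11.91), which held 6274537 and 13465260 reads. The summed level of the 8 astrocyte markers was 79558 to 103669 normalized reads in LD, 78016 to 99624 in BD, 79001 to 93042 in HD, and 90339 to 101345 in VHD, with none at 0 in all libraries. The part of astrocyte RNA and of depth in these values was not tested. LD replicate 3, of cohort 4 and the shallowest library with 4392296 reads, was the highest for BCL11B (519) and the lowest for FOXP2 (76.5) and RORB (461). Without HD replicate 3, 15 pairs passed for r in place of 20, without VHD replicate 6 16 did, and without LD replicate 3 17 did. These libraries are from 3 different categories and 3 different cohorts.

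Depth and the levels of other cell types were set beside the genes in 45 relations, adjusted together. TBR1 was lower in deeper libraries, with r = −0.65 and rho = −0.72 against log2 depth (adjusted permutation p = 0.00405 for r). It was −0.63 without the 2 farthest libraries and −0.89, −0.51 and −0.65 within cohorts 4, 5 and 7a. No other relation passed for r. On residuals after category and cohort, NEUROD2 with log2 depth (−0.61) and TBR1 with the astrocyte level (−0.62) passed as well (adjusted permutation p = 0.00525 for both). NEUROD2 had r = −0.51 and rho = −0.49 with log2 depth (adjusted permutation p = 0.0726 for r), and −0.91, −0.34 and 0.04 within the cohorts. TBR1 and PCP4 had r = −0.53 and −0.49 and rho = −0.39 and −0.33 with the astrocyte level (adjusted permutation p = 0.0529 and 0.0741 for r), and −0.33 and −0.26 without the 2 farthest libraries. With log2 depth taken out of every gene, 18 of the 36 pairs passed, FOXP2 with RORB at 0.76, BCL11B with SLC17A6 at −0.49 and NEUROD2 with TBR1 at 0.41.

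**Figure D5:**
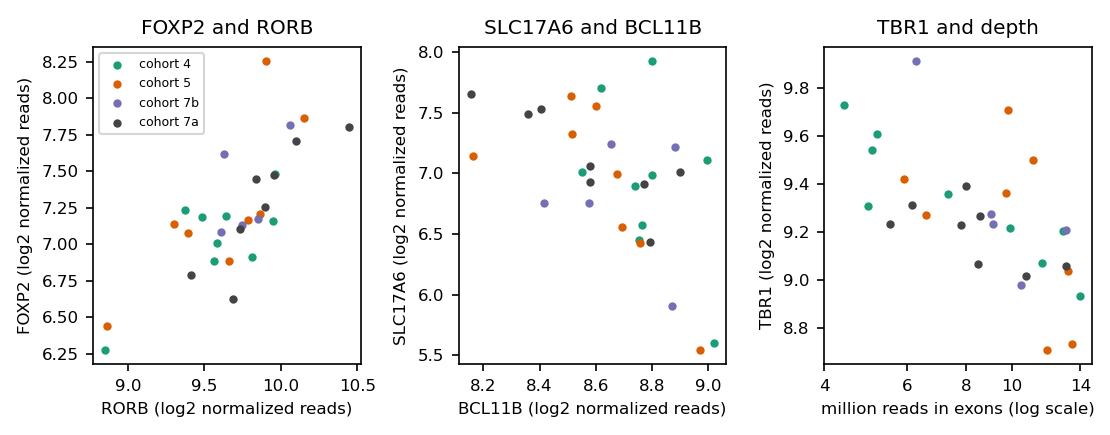
Log2 normalized reads of FOXP2 against RORB, SLC17A6 against BCL11B, and TBR1 against the reads in exons (log scale), 1 point per animal coloured by cohort. The 3 relations have r of 0.76, −0.55 and −0.65.

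The genes most like each member over the 30 animals were named by the highest r among the tested genes outside the set, as a description. For FOXP2 they were GPR158 (r = 0.85), a G protein-coupled receptor, KCNH5 (0.83), a voltage-gated potassium channel, and CHN2 (0.78). For RORB they were PLCB1 (0.86), a phospholipase C, VSNL1 (0.84), a neuronal calcium sensor, and FOXO3 (0.82), a forkhead factor. For SLC17A6 they were FAM198B (0.77), KCND2 (0.77), a potassium channel, and LRRK2 (0.76), a kinase linked to Parkinson disease. For BCL11B they were GABRQ (0.82), a GABA-A receptor subunit, DGKG (0.79) and GNG2 (0.79). For FEZF2 they were CLSTN2 (0.84), CORO2A (0.80) and UNC5C (0.79), a netrin receptor. For NEUROD2 they were MAP6 (0.86), a microtubule-stabilizing protein, H1FX (0.84) and PRR7 (0.83). For NEUROD6 they were AK5 (0.81), an adenylate kinase, PPP1R9A (0.80), an actin-binding protein, and SH3GL2 (0.78), which acts in synaptic vesicle endocytosis. For PCP4 they were PIK3CB (0.77), KIAA2026 (0.76) and VPS33A (0.74), and for TBR1 SSBP3 (0.81), C20orf112 (0.80) and YLPM1 (0.79).

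Other genes of the same identities were read from lists. Of 16 other excitatory identity genes 14 were tested, of 20 other upper layer genes 15 and of 30 other deep layer genes 24, and 0 passed an adjusted p under 0.05 in any of the comparisons by limma. For VHD against LD, 0 excitatory, 1 upper layer and 0 deep layer genes had an unadjusted p under 0.05 (3.5% of all tested genes), and 6, 7 and 16 were above 0 (49.9% of all tested genes). For HD against LD it was 2, 4 and 1 at an unadjusted p under 0.05 (12.5%) and 8, 7 and 19 above 0 (50.5%). For BD against LD it was 1, 0 and 0 (3.05%) and 8, 8 and 16 above 0 (50%). For cohort 4 against cohort 7a it was 2, 4 and 4 (9.15%) and 5, 5 and 17 above 0 (51.8%). The median estimates of the excitatory, upper layer and deep layer genes were 0.00, −0.02 and 0.08 log2 units for VHD, 0.07, −0.07 and 0.13 for HD, and 0.03, 0.00 and 0.04 for BD, with 0.00 over all tested genes in each. For cohort 4 they were −0.03, −0.11 and 0.15, with 0.01 over all tested genes.

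By name, the deep layer genes with the smallest p were OPRK1, the kappa opioid receptor, ETV1, an ETS factor of layer 5 neurons, and NTNG2, a netrin-G. OPRK1 had 72.0, 165 and 275 normalized reads as its lowest, median and highest in cohort 4, against 53.2, 78.5 and 145 in cohort 7a, with a limma difference of 0.92 ± 0.26 (adjusted p = 0.221). NTNG2 differed by 0.39 ± 0.14 in the same comparison (adjusted p = 0.368). ETV1 had 769, 871 and 1017 normalized reads in HD, against 651, 775 and 989 in LD, with a limma difference of 0.28 ± 0.10 (adjusted p = 0.317). On the upper layer side, COL5A2 had 257, 352 and 494 normalized reads in HD, against 364, 467 and 604 in LD, a limma difference of −0.51 ± 0.16 (adjusted p = 0.314). TPBG and RASGRF2 differed by −0.59 ± 0.16 and −0.28 ± 0.09 between cohorts 4 and 7a (adjusted p = 0.163 and 0.305 by limma). KCNV1, a potassium channel subunit of excitatory neurons, had 612, 757 and 869 normalized reads in cohort 4, against 820.2, 986 and 1303 in cohort 7a, a limma difference of −0.41 ± 0.10 (adjusted p = 0.147). NPTX1 was at 0.25 ± 0.09 for cohort 5 and CAMK2A at −0.17 ± 0.08 for cohort 7b against cohort 7a (adjusted p = 0.484 and 0.960 by limma). GAD1 and MBP were at −0.10 ± 0.07 and 0.62 ± 0.19 for cohort 4 against cohort 7a (adjusted p = 0.702 and 0.241 by limma).

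At the exon level, most reads of several genes came from 1 long exon. Exons are counted here from the lower coordinate. Exon 1 of BCL11B, 6909 bases long, held 88.8% of the reads of the gene and 90.2% of its exon length, exon 17 of FOXP2, 3990 bases long, 56.6% and 64.4%, and exon 1 of NEUROD2 98.7% and 98.6%. Exon 1 of PCP4 held 94.7% of its reads in 74.5% of its length, and its exon 3 had reads in only 5 of 30 libraries. In TBR1, coverage per kb was uneven, from 129 normalized reads per kb in exon 6, 1700 bases long, to 649 in exon 5, 62 bases long. Of the 61 exons of the 9 genes, 34 had enough reads to be tested against the other exons of their gene. The filter did not cover those other exons. Exon 1 of NEUROD2 was set against exon 2 with a median of 4 reads, and exon 1 of PCP4 against exons 2 and 3 with medians of 1 and 0. These tests thus rest on few reads. The estimates of the NEUROD6 exons mirror each other. With limma, 0 of the 34 passed for VHD against LD, any category, cohort 4 against cohort 7a or any cohort, and 0% of the 105713 exons tested did in each. At an unadjusted p under 0.05 it was 1, 3, 1 and 1, where 3.67%, 5.21%, 5.23% and 4.32% of all tested exons had such a p. The smallest was that of exon 3 of TBR1 for any category (unadjusted p = 0.00288, adjusted p = 0.921).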

How the data were processed

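The authors deposited gene and exon tables as a signal of upper-quartile-normalized reads, with CASAVA, FastQC, STAR 2.3.0e and edgeR named per the submitters' processing notes. Libraries were stranded and ribosomal RNA was depleted per the labels' protocols. The build, annotation, counting program and its strand setting are not stated in any source used. Dividing by the smallest step of each library gave whole reads for 100% of values within 0.01, and each gene was the sum of its exons. The labels speak of 31 animals, of which the authors removed 1 as an outlier; the 30 others were each used as 1 replicate. The libraries held 4392296 to 13985136 reads, whose number limits the precision of low genes such as PCP4.

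Values were tested as log2 of the value plus a pseudocount of 1 for genes reaching 10 normalized reads in 6 or more libraries, with limma 3.58.1 (R 4.3.3, eBayes with trend), category and cohort in 1 model, and Benjamini-Hochberg adjustment over the 12935 genes at 0.05. The edgeR 4.0.16 quasi-likelihood test on whole reads was an alternative. Exon shares were tested likewise on log2 ratios of an exon to the sum of the other exons of its gene. Correlations were permuted with numpy 2.4.6 (two-sided), and no r was given for under 6 animals. The methods were tested on simulated data.

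All 9 members are named, with the 3 genes most like each by r, and from each list the genes with the smallest p, plus GAD1 and MBP whatever their values; 1 further gene of that rule is not reported here. The members and lists were chosen with earlier results of these data known. Alternatives were other pseudocounts, filters and scalings, edgeR, terms for library number, depth and myelin, models without category or cohort, single cohorts, and each library left out. Leaving out the 6 shallowest libraries, and the alternatives for the correlations except residuals of category and cohort and ranks, were chosen after seeing the data. No sequences are printed.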

Additional observations from a re-analysis of the deposited data

Results flagged for a closer look

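A search for single animals far from their group, over the 9 genes in the 4 categories and 4 cohorts, marked 7 of 72 groups. The cut would mark about 1 in 20 independent groups of normally distributed values. These groups share animals and correlated genes, and the share marked over all tested genes was not computed, so the count is a description only. Of the 7 marks, 2 are LD replicate 3, highest in LD for NEUROD2 (488 normalized reads, the next 385) and for TBR1 (848, the next 669). VHD replicate 6 was lowest in cohort 5 for NEUROD2 (289, the next 381) and NEUROD6 (311, the next 472). HD replicate 3 was highest in cohort 7b for TBR1 (961, the next 617). BD replicate 7 was highest in BD for NEUROD6 (586, the next 506), and BD replicate 1 was highest in BD for PCP4 (66.9, the next 39.3). The slope over the categories was also compared between cohorts by limma, and 0 genes of the table had an adjusted p under 0.05, with 290 unadjusted.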

How the results depend on the processing

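No paired analysis was possible because the replicate numbers only name the animals of a group in accession order and pair nothing across groups. Over the alternatives other than leaving out 1 library, the differences of the 9 genes gave 722 values. None of them had an adjusted p under 0.05 (the smallest was 0.132 by limma or edgeR), and 686 of the 722 kept their direction. The others changed sign, and the cause was not tested. With edgeR on whole reads, BD minus LD was −0.054 for FOXP2, and cohort 5 minus cohort 7a was 0.048 for SLC17A6 and 0.00096 for TBR1. With library number sets as a term, VHD minus LD was 0.037 for NEUROD2, BD minus LD was −0.025 for BCL11B and −0.0028 for TBR1, cohort 4 minus cohort 7a was 0.13 for PCP4, and cohort 5 minus cohort 7a was 0.016 for FOXP2, 0.052 for SLC17A6 and 0.018 for TBR1. With log2 depth as a term, TBR1 was −0.053 for BD minus LD and 0.078 for cohort 5 minus cohort 7a. With the myelin level as a term, FEZF2 was −0.035 for VHD minus LD. With no cohort term, VHD minus LD was −0.033 for FEZF2 and −0.018 for TBR1, BD minus LD was −0.046 for FOXP2, −0.028 for PCP4 and −0.029 for RORB, and the slope was −0.013 for FEZF2 and −0.0024 for TBR1. With no category term, cohort 5 minus cohort 7a was 0.043 for BCL11B and 0.023 for TBR1. Within cohort 7a, VHD minus LD was −0.33 for FEZF2 and −0.065 for TBR1, and HD minus LD was −0.21 for FEZF2, 0.14 for FOXP2 and −0.10 for TBR1. Without the 6 shallowest libraries, BD minus LD was −0.063 for FOXP2, −0.081 for RORB and −0.043 for TBR1, cohort 4 minus cohort 7a was 0.038 for FOXP2, −0.12 for NEUROD2, 0.016 for SLC17A6, −0.0022 for TBR1 and 0.021 for GAD1, cohort 5 minus cohort 7a was 0.086 for FOXP2, and the slope of RORB was −0.0018.

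Leaving out each library in turn, 0 differences of the 9 genes passed and 71 of 1890 changed sign. The ranges for VHD minus LD were −0.051 to 0.17 for FEZF2, −0.088 to 0.021 for NEUROD2, −0.052 to 0.21 for RORB and −0.0011 to 0.18 for TBR1. For HD minus LD they were −0.068 to 0.18 for FEZF2, −0.085 to 0.079 for RORB and −0.070 to 0.17 for TBR1. For BD minus LD they were −0.046 to 0.10 for BCL11B, −0.0082 to 0.14 for FEZF2, −0.097 to 0.11 for FOXP2, −0.089 to 0.30 for PCP4, −0.059 to 0.11 for RORB and −0.016 to 0.094 for TBR1. For the slope they were −0.014 to 0.057 for FEZF2, −0.020 to 0.024 for NEUROD2, −0.020 to 0.047 for RORB and −0.0053 to 0.059 for TBR1. Against cohort 7a they were −0.23 to 0.078 for PCP4 in cohort 4, −0.15 to 0.0073 for BCL11B, −0.22 to 0.044 for FOXP2, −0.15 to 0.15 for SLC17A6 and −0.076 to 0.078 for TBR1 in cohort 5, and −0.039 to 0.23 for TBR1 in cohort 7b.

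Over the whole table, genes at an adjusted p under 0.05 numbered 0 except as follows. For cohort 4 minus cohort 7a they were 15 with library number sets as a term and 26 with no category term, and 0 to 7 with 1 library left out (7 without BD replicate 1, 1 without LD replicate 9). For cohort 5 minus cohort 7a it was 1 at a minimum of 100 normalized reads, 1 with the myelin level and 1 with no category term, and 0 to 2 with 1 library left out. It was 1 for any cohort with library number sets and 1 for HD minus LD with no cohort term. None of these genes was among the 9.

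Of the 20 correlated pairs, 12 stayed past the threshold in every alternative. The other 8 fell below it in at least 1, 7 of them without 1 library or another. BCL11B with NEUROD6 fell below it only on residuals of library number sets (r = 0.37, adjusted permutation p = 0.0936). FOXP2 with SLC17A6 fell below it in 3 of 8 alternatives other than leaving out 1 library, with r down to 0.27 and an adjusted permutation p up to 0.221. The number of pairs was 17 by ranks, 17 on residuals of category and cohort, 15 on those of library number sets, 18 on those of log2 depth, 21 on those of the myelin level, 15 without the 6 shallowest libraries, and 15 to 22 with 1 library left out. The r of PCP4 with SLC17A6, −0.051, was 0.041 on residuals of category and cohort, 0.013 by ranks and 0.019 on residuals of log2 depth. With 1 library left out, uncalled pairs that changed sign were FEZF2 with FOXP2 (−0.061 to 0.21), FOXP2 with NEUROD6 (−0.046 to 0.092), FOXP2 with TBR1 (−0.012 to 0.31), PCP4 with SLC17A6 (−0.14 to 0.10) and RORB with TBR1 (−0.084 to 0.31).

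With 6 to 10 animals a category and LD absent from cohort 5, from which 4 of 6 VHD animals came, the cohort-adjusted VHD differences rest on few direct comparisons. Counting error covers reads only, and PCP4, at 13 to 81 reads a library, is the least precise of the genes.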
